A study of Komagataella phaffii GS115 with 2 samples.

Results

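The genes described here encode 8 enzymes of the pentose phosphate pathway and of the reactions that return carbon to xylulose phosphate in the methylotrophic yeast Komagataella phaffii GS115. They were chosen by locus tag from a list drawn up by pathway and not by their signal, and all 8 were found among the 5040 genes of the deposited values. Earlier results of these data were known when the genes and comparisons were chosen. The gene symbols and the name transaldolase are those given with that list, and the other enzyme names are read from the symbols. Neither the deposited values nor the gene table used here pairs a locus tag with a name, so the names were not checked here. The study has 1 group, wild-type GS115 cells from shaken cultures, in which chromatin carrying trimethylated lysine 36 of histone H3 (H3K36me3) was immunoprecipitated from formaldehyde-fixed cells and sequenced (ChIP-seq). The labels list 2 libraries of this group and give neither a carbon source nor a growth phase. The values are 1 column of FPKM (fragments scaled by gene length and by the total number of fragments), which the authors deposited with replicate 1.

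The pentose phosphate pathway oxidises glucose phosphate to supply NADPH in its oxidative branch, and its non-oxidative branch exchanges carbon units between sugar phosphates. In methylotrophic yeasts, formaldehyde made from methanol is joined to xylulose phosphate, so that growth on methanol depends on rebuilding xylulose phosphate through transketolase, transaldolase, aldolase and sugar bisphosphatase reactions. In the budding yeast Saccharomyces cerevisiae, H3K36me3 is placed over gene bodies by the methyltransferase Set2, which binds elongating RNA polymerase II.

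With 1 column of values there was no replicate error and no contrast between conditions, so no test was made. Differences are set beside the spread over all genes, which is not a measure of experimental error, and each percentile is the share of genes with a lower value. The FPKM values were not divided by input or by histone H3, and the part of nucleosome density, copy number, mapping and unenriched background in any value was not tested. Sequencing depth is unknown, so no counting interval is given.

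The H3K36me3 signal of the 8 pathway genes lay between 112 and 161 FPKM, between percentiles 10.6 and 93.7 of all genes. Their median was 147 FPKM, against 138 FPKM for all 5040 genes, a ratio of 1.06, and this median ranked at percentile 73.7 of all genes. The pathway genes averaged 144 ± 15.0 FPKM (SD over 8 genes), and all genes averaged 136 ± 19.7 FPKM (SD over 5040 genes). Of the 8 genes, 7 lay above the median of all genes, where 50.0% of all genes lie by definition, although SHB17 and FBA1-2 exceeded it by only 0.49% and 1.53%. No pathway gene was more than 25% below that median, as 6.05% of all genes were, and none was more than 25% above it, as 2.22% of all genes were.

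Within a narrower limit of 10%, 3 of the 8 genes lay above the median of all genes by more than that, against 16.2% of all genes. These were GND1, the transaldolase gene PAS_chr2-2_0337 and ZWF1, and ZWF1 passed the limit of 152.2 FPKM by under 1 FPKM. A single gene, the other transaldolase gene, had a value lower than the median by over 10%, as did 22.7% of all genes. Together the 8 genes held 0.145% of the fragments counted in genes and 0.137% of the total gene length.

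**Figure D1:**
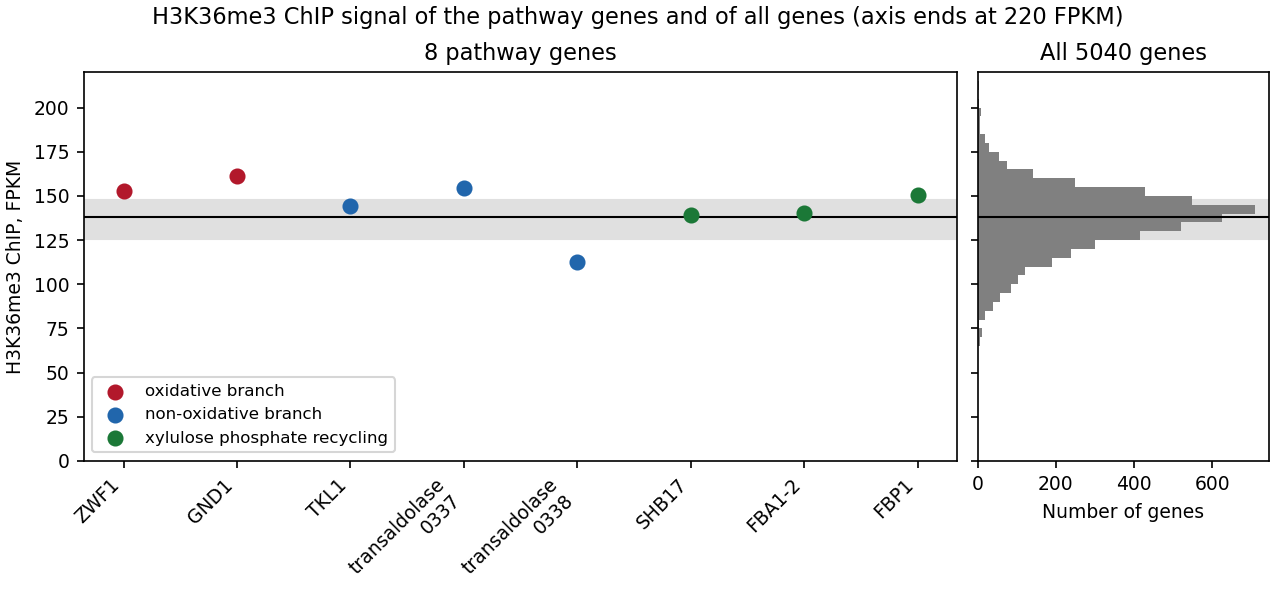
H3K36me3 ChIP signal in FPKM of the 8 pathway genes (left, coloured by branch, 1 value each) and of all 5040 genes (right, histogram in steps of 5 FPKM), with the median of all genes as a line and the range between the quartiles of all genes shaded. The 8 genes sit between 112 and 161 FPKM, and 1 transaldolase gene is the single one below the line.

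Both genes of the oxidative branch had signal above that of most genes. GND1 (PAS_chr3_0277, chromosome 3, 1479 nt), by its symbol 6-phosphogluconate dehydrogenase, which releases carbon dioxide and makes NADPH, had 161 FPKM. This was the highest value of the 8 genes, 1.17 times the median of all genes and at percentile 93.7. ZWF1 (PAS_chr2-1_0308, chromosome 2, 1515 nt), by its symbol glucose-6-phosphate dehydrogenase, which catalyses the entry step of the branch, had 153 FPKM. Its value was 1.10 times the median of all genes, at percentile 84.7. The genes differed from each other by a ratio of 1.06 with GND1 higher.

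The genes of the non-oxidative branch covered nearly the whole range of the 8 genes. TKL1 (PAS_chr1-4_0150, chromosome 1), by its symbol transketolase, which moves 2-carbon units between sugar phosphates, is the longest of the 8 genes at 2040 nt. It had 144 FPKM, 1.04 times the median of all genes and at percentile 65.9. The transaldolase gene PAS_chr2-2_0337 (chromosome 2, 975 nt) had 155 FPKM, the second highest value of the 8 genes, at percentile 87.4. The transaldolase gene PAS_chr2-2_0338 (chromosome 2, 1059 nt) had 112 FPKM, the lowest value of the 8 genes, at percentile 10.6. Transaldolase moves a 3-carbon unit between sugar phosphates.

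The genes linked to xylulose phosphate recycling had signal from the median of all genes upwards. FBP1 (PAS_chr3_0868, chromosome 3, 1062 nt) is by its symbol fructose bisphosphatase, which removes a phosphate in gluconeogenesis. It had 150.3 FPKM, 1.09 times the median of all genes and at percentile 80.1. FBA1-2 (PAS_chr1-1_0319, chromosome 1), by its symbol a second fructose-bisphosphate aldolase, had 140.4 FPKM, at percentile 55.6. Aldolase splits fructose bisphosphate into triose phosphates, and can join a triose phosphate to a tetrose phosphate to form sedoheptulose bisphosphate. SHB17 (PAS_chr2-2_0177, chromosome 2) is listed under the name of the sedoheptulose bisphosphatase of Saccharomyces cerevisiae. It had 139 FPKM, at percentile 51.5, and is the shortest of the 8 genes at 729 nt. FBA1-2 is the only one of the 8 whose length in the gene table, 1106 nt, is not a multiple of 3, as a coding length of whole codons would be, and which length the authors divided by is not stated.

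In order of level the 8 genes ran GND1, PAS_chr2-2_0337, ZWF1, FBP1, TKL1, FBA1-2, SHB17 and PAS_chr2-2_0338. The 6 steps from GND1 down to SHB17 were small, between 1.44 and 6.81 FPKM. The last step, from SHB17 to PAS_chr2-2_0338, was 26.6 FPKM, a ratio of 1.24. No replicate spread was available to say which neighbours in this order differ. Over the 28 pairs of the 8 genes the median difference of log2(FPKM + 1) was 0.12, against 0.17 for all pairs of the 5040 genes. These pairs were not matched for length, and all pairs include genes under 500 nt, which none of the 8 is. Of the 28 pairs, 9 differed by more than this median of all pairs, as 50.0% of all pairs do by definition. Of these 9, 7 held PAS_chr2-2_0338. Without that gene, which was set aside after its value was seen, the other 7 genes lay between 139 and 161 FPKM, with an SD of 8.15 FPKM and a largest difference within a pair of 0.21 on the log2 scale.

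Signal in this set of values varied less among long genes than among short genes, so each pathway gene was also ranked among the 200 genes nearest to it in length. Of the 8 genes, 7 were above the median of those genes, against 50.0% of all genes ranked in the same way. GND1 was at percentile 96.0 among genes of 1422 to 1527 nt, whose values had a median of 139 FPKM and an SD of 14.8 FPKM. ZWF1 was at percentile 85.5 and TKL1 at percentile 64.5. PAS_chr2-2_0337 was at percentile 86.5 and PAS_chr2-2_0338 at percentile 13.5. SHB17 changed most in rank, to percentile 63.0. Genes of its length, 687 to 762 nt, had a median of 132 FPKM, the lowest of the 8 comparisons. Those genes also had the widest spread of the 8 comparisons, with an SD of 27.5 FPKM. FBA1-2 was at percentile 64.0 and FBP1 at percentile 76.0.

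**Figure D2:**
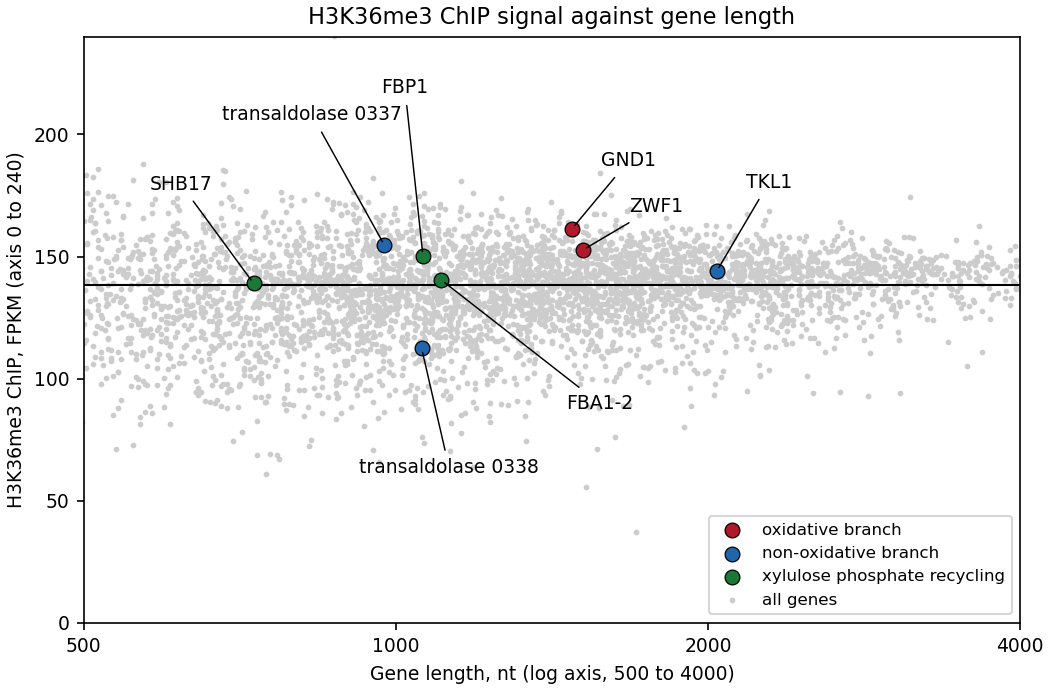
H3K36me3 ChIP signal in FPKM against gene length in nt on a log axis, for the 8 pathway genes (large coloured points) and for all genes between 500 and 4000 nt and under 240 FPKM (grey points), with the median of all genes as a line. GND1 lies near the upper edge of genes of its length, at percentile 96.0. PAS_chr2-2_0338 lies below most genes of its own length, at percentile 13.5, but within their spread.

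The transaldolase genes lie next to each other on chromosome 2, do not overlap in the gene table, and had unequal signal. PAS_chr2-2_0337 had 155 FPKM and PAS_chr2-2_0338 had 112 FPKM, a difference of 42.2 FPKM and a ratio of 1.38. On the log2(FPKM + 1) scale the difference was 0.46, against a median absolute difference of 0.16 over all 5036 pairs of adjacent genes. The pair ranked at percentile 90.3 of those pairs, and 487 adjacent pairs (9.67%) differed by more. Because short genes vary more, the pair was also set beside the 532 adjacent pairs of like length, whose median absolute difference was 0.18, and it ranked at percentile 89.8 of them. How far fragments of one copy could be assigned to the other was not tested, because no sequence was used.

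The surroundings of the pair were uneven. The 5 genes before PAS_chr2-2_0338 in file order had 162, 145, 155, 131 and 122 FPKM, and the lowest of these were the genes closest to it. The 5 genes after PAS_chr2-2_0337 had 121, 181, 147, 107 and 153 FPKM. The highest of these, at 181 FPKM, is a gene of only 216 nt. PAS_chr2-2_0338 was lower than 9 of the 10 genes nearest to it, and its log2(FPKM + 1) was 0.38 under their median of 146 FPKM, at percentile 7.05 of the same measure over all genes. PAS_chr2-2_0337 was higher than 8 of the 10 genes nearest to it and 0.16 above their median of 138 FPKM on the log2 scale, at percentile 85.0. This difference was 0.40 at percentile 96.4 with 1 gene on each side, and 0.14 at percentile 83.2 with 10. With only genes of at least 500 nt it was 0.25 at percentile 95.4. PAS_chr2-2_0338 lay at -0.29, percentile 9.69, with 1 gene on each side, and at -0.31, percentile 9.71, with 10. With only genes of at least 500 nt PAS_chr2-2_0338 lay at -0.38, percentile 6.17. Each of these comparisons includes the other transaldolase gene among the neighbours.

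**Figure D3:**
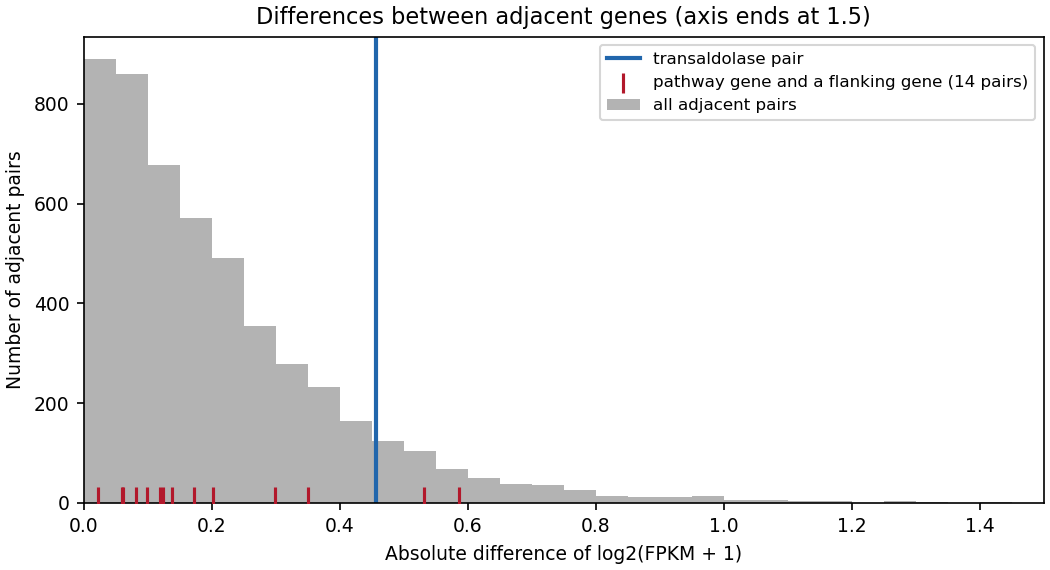
Absolute difference of log2(FPKM + 1) between adjacent genes, as a histogram of all adjacent pairs in steps of 0.05, with the transaldolase pair as a vertical line and the 14 pairs of a pathway gene and a flanking gene outside the list as ticks. The transaldolase pair, at 0.46, lies right of the bulk of the pairs, and only 2 of the ticks lie beyond it.

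Set beside the median of the 5 genes on each side, 6 of the 8 pathway genes were higher, against 50.3% of all genes. GND1 was higher than all 10 of its neighbours, as 8.78% of genes with 10 neighbours were. It lay 0.22 above their median of 138 FPKM on the log2 scale, at percentile 91.4 of this measure over all genes, and 0.38 above at percentile 95.7 with 1 gene on each side. The gene directly before it had 143 FPKM and the gene directly after it had 107 FPKM. The second of these differences, 0.59 on the log2 scale, ranked at percentile 95.1 of adjacent pairs.

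FBP1 also stood beside a low gene. It had 150.3 FPKM, against 142 FPKM in the gene before it and 104 FPKM in the gene after it, a gene of 423 nt. The difference from the gene after it, 0.53 on the log2 scale, was at percentile 93.6 of adjacent pairs. Over its 10 neighbours FBP1 lay 0.14 above their median of 136 FPKM, at percentile 81.1. With 1 gene on each side it lay 0.31 above, at percentile 92.5. Restricted to genes of at least 500 nt, it lay 0.11 above, at percentile 78.3. ZWF1 lay 0.13 above the median of its neighbours, 140 FPKM, at percentile 78.5, and was higher than 8 of the 10. The neighbours above ZWF1 had 179 and 158 FPKM, the first of them a gene of 174 nt. With 1 gene on each side ZWF1 lay 0.13 above, at percentile 72.9.

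TKL1 stood between unequal sides. The 5 genes before it had 99.3, 137, 127, 137 and 117 FPKM, each below the median of all genes. The 5 genes after it had 138, 145, 140, 140 and 148 FPKM, a narrower range that held TKL1's own 144 FPKM. TKL1 was 0.07 above the median of all 10 neighbours on the log2 scale, at percentile 65.5. It was 0.18 above at percentile 80.0 with 1 gene on each side, and 0.08 above at percentile 68.5 with 10. SHB17 differed least from its neighbours, at 0.04 above their median of 136 FPKM and with 5 of the 10 on each side of it, but those neighbours were the most scattered, from 87.2 to 167 FPKM. With 10 genes on each side, or with only genes of at least 500 nt, SHB17 lay below its neighbours, by -0.01 and -0.03 on the log2 scale.

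FBA1-2 had a value near the median of all genes inside a stretch of high values. Its 10 neighbours had a median of 153 FPKM, and such a median over 10 neighbours ranked at percentile 98.6 of all genes. The 5 genes before FBA1-2 had 148, 147, 181, 150.5 and 129 FPKM, and the 5 genes after it had 155, 168, 158, 167 and 144 FPKM. The values of 181 and 168 FPKM belong to short genes, of 255 and 384 nt. FBA1-2 was thus lower than 9 of its 10 neighbours. It shared this with PAS_chr2-2_0338, and 18.3% of all genes with 10 neighbours were lower than at least 9 of them. On the log2 scale FBA1-2 lay 0.12 under the median of its neighbours, at percentile 27.2, against 0.38 under and percentile 7.05 for PAS_chr2-2_0338. Set beside only the 1 gene on each side, FBA1-2 was almost level with their median, at -0.0077 on the log2 scale and percentile 45.7. With 10 genes on each side it lay at -0.071, percentile 35.0, and with only genes of at least 500 nt at -0.088, percentile 31.2. FBA1-2 lay under the median of its neighbours each time, but how far under depended on the window and the genes kept.

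**Figure D4:**
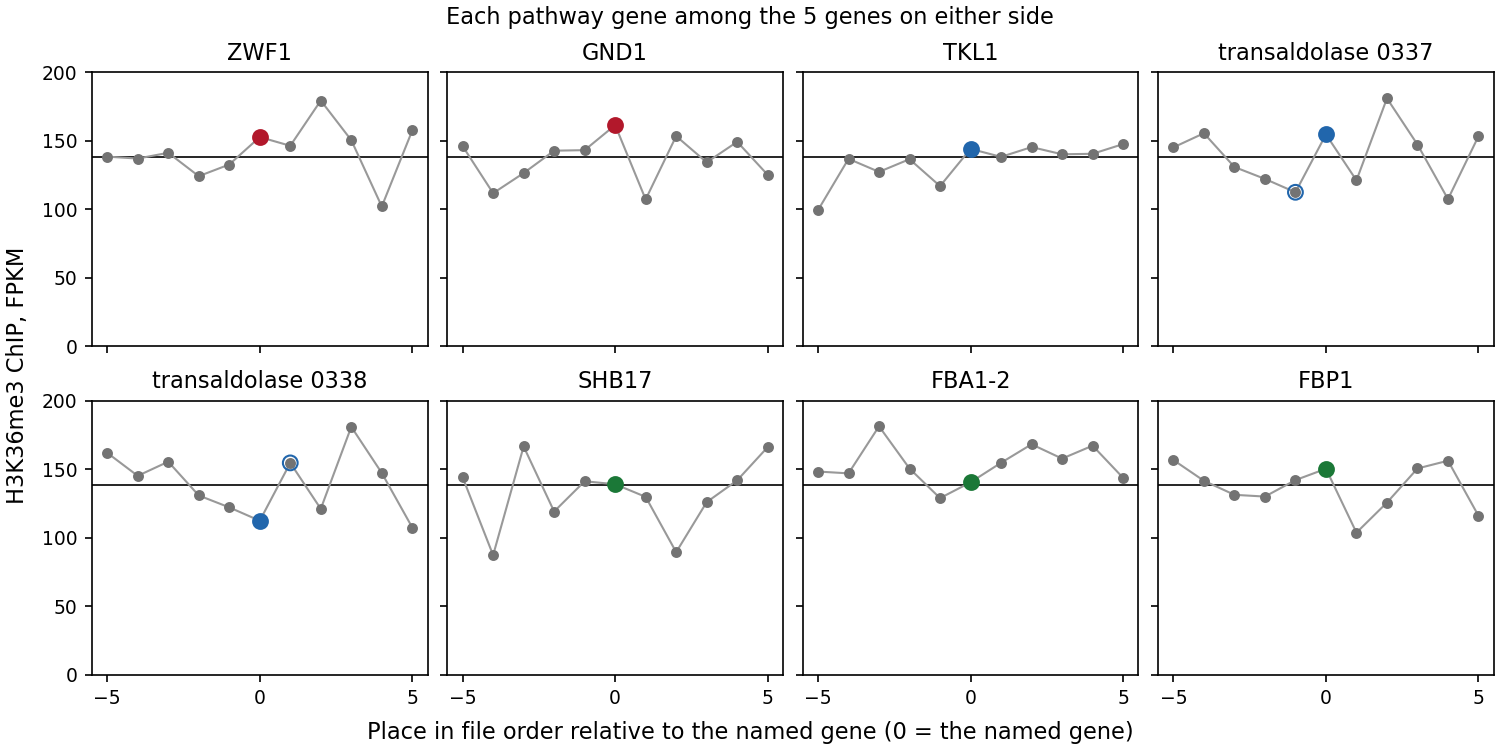
H3K36me3 ChIP signal in FPKM of each pathway gene (large coloured point at place 0) and of the 5 genes on either side in file order (grey points), with the median of all genes as a line in each panel; open circles mark the other transaldolase gene. GND1 exceeds all 10 of its neighbours, and FBA1-2 and PAS_chr2-2_0338 lie under 9 of 10.

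Over the 16 comparisons of a pathway gene with the gene directly before or after it, the pathway gene was higher in 12 and lower in 4, the transaldolase pair counting once in each direction. Over all genes this share is 50.0% by construction, since each adjacent pair counts once in each direction. None of the 16 pairs overlapped in the gene table. In 8 of the 16 the difference was larger than the median difference of adjacent genes, as in 50.0% of all adjacent pairs by definition. The transaldolase pair is again counted in each direction. The median of the 10 neighbours ranked from percentile 34.0 for the neighbours of SHB17 to percentile 98.6 for those of FBA1-2.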

How the data were processed

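Per the file header, the authors deposited 1 column of FPKM values. Per the submitters' processing notes, the tools included MACS2, deepTools, SAMtools, Bowtie2, Trimmomatic 0.39 and FastQC 0.12.1, with no roles named. For the counting tool, genome build, annotation and any pooling of both libraries, no statement was found in the labels or the file header. Input and H3 chromatin was not analysed. All 5040 IDs matched a locus tag of RefSeq assembly ASM2700v1, which gave gene order, chromosome and length. No coordinates or sequences are given, since the authors' build is not named. FPKM times these lengths summed to 100.1% of what scaling to the fragments in these genes gives, so values are relative levels. No common value of 1 read was found over 200000 candidate totals.

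Ranks used FPKM, and differences used log2(FPKM + 1). Named genes are the 8 listed genes and the genes beside them. Their neighbours are the 5 genes on each side. With 1 column, no genes were named for a like pattern. Other pathway enzymes were planned, but the gene table pairs no tag with a name, so they were left out. The genes and comparisons were chosen with earlier results of these data known. The measures were tested on simulated data. Python 3.11.15, numpy 2.4.6, pandas 2.3.3, scipy 1.17.1 and matplotlib 3.10.9 were used. Alternatives were other pseudocounts, windows, baselines and filters.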

Additional observations from a re-analysis of the deposited data

How the results depend on the processing

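No paired analysis was possible because there was a single column of values, and leaving out a replicate could not be run for the same reason. The counts of pathway genes past the 10% and 25% limits, above the median of all genes and above genes of like length kept their values under every alternative run for them. The number above their neighbours was 6, and 5 with 10 genes on each side or with genes of at least 500 nt, where SHB17 changed sign to -0.012 and -0.026. With 1 gene on each side the differences from neighbours ran from -0.29 to 0.40 on the log2 scale. With genes of at least 500 nt the transaldolase pair ranked at percentile 91.9 of adjacent pairs in place of 90.3; this alternative leaves out the short genes, and the cause was not tested further. Its other alternatives gave 89.8 to 90.3. The filter at 1 FPKM removed 0 genes and so tests nothing. The genes of like length included none under 500 nt, so that restriction tests nothing for them either. Of 96 alternative values of single genes, 24 could not move for these reasons. Of the other 72, 40 stayed within the binomial interval of their percentile, 30 moved past it with the same direction, and 2 changed sign. The 40 include every value under pseudocounts of 0 and 10. Those settings could change little, because the lowest FPKM of any gene was 20.3. The interval covers the number of genes ranked and not experimental error. Depth is unknown, so what counting adds to the differences was not tested.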
